A study of Mus musculus with 6 samples.

Results

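The F-box genes encode the subunits with which SCF ubiquitin ligases choose the proteins they mark. They were taken as all genes whose symbol on the array platform begins with Fbxl, Fbxo or Fbxw and a number, and 66 such genes were described of 18193 named genes on the array. The set holds 16 Fbxl genes, 32 Fbxo genes and 18 Fbxw genes, read at 114 probe sets of the 34945 that carry exactly 1 gene symbol. Each gene was read at its brightest probe set, by the mean of the log2 signals on all 6 arrays. One more symbol, Fbxl12os, meets the rule for names but is listed in RefSeq as a transcribed pseudogene and was set apart.

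Primary mouse embryonic fibroblasts (MEFs) with both alleles of CNOT3 floxed were infected with a mock retrovirus to give control MEFs, or with a retrovirus carrying the Cre recombinase to give CNOT3-depleted MEFs. In the labels the control cells are wild type. Infected cells of both kinds were kept in puromycin for 2 days. RNA was taken at 0 h and after 6 and 12 h with the transcription inhibitor actinomycin D (Act. D). Each of these 6 conditions has 1 array. Cre came from a virus, so the CNOT3-depleted cultures were selected populations and not a line made from 1 clone, and the study describes cell death in them. CNOT3 is a subunit of CCR4-NOT, the complex that shortens the poly(A) tails of mRNAs. The question was which F-box transcripts differed in level without CNOT3, and which differed in how much remained once transcription was stopped. With 1 array per condition no difference has a replicate check, no test was made, and precision is limited by the number of arrays.

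An SCF ligase is built on the cullin CUL1, which holds the RING protein RBX1 at one end and the adaptor SKP1 at the other. The F-box, the short motif by which the family is named, binds SKP1, and the rest of the F-box protein binds the substrate. Fbxw proteins bind it with WD40 repeats, Fbxl proteins with leucine-rich repeats and Fbxo proteins with other domains. Through their substrates, which include cyclins, IκB, β-catenin and cryptochromes, these proteins take part in the cell cycle, signalling and the circadian clock.

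The values are MAS5 signals on a linear scale, and the median of an array lay between 51.0 and 77.4. The trimmed means of all 6 arrays were alike, 494 to 497, also after Act. D. A signal is therefore relative to the rest of its array. A fraction left is not an amount of RNA per cell, and it can rise with transcription stopped. Signals under the 25th percentile of their array, from 13.6 to 19.8, were counted as near background. A gene was called bright where the mean of its log2 signals at 0 h reached the median of all probe sets. Of the F-box genes, 52 were bright, 44 of these were above background on all 6 arrays, and 14 were not bright. Cnot3 itself was read at 436 in the control and 239.6 in the CNOT3-depleted culture at 0 h, 1.82-fold lower, while a dimmer Cnot3 probe set had 204 and 227. The summed signal of 10 fibroblast markers ranged from 118956 to 202447, that of 4 endothelial markers from 217 to 291, and that of 7 leukocyte markers from 2221 to 4633 with no split between the cultures. The summed signals of 4 epithelial markers, 420.0 to 623 in control and 1177 to 1382 in CNOT3-depleted MEFs, and of 4 skeletal muscle markers, 3491 to 5010 and 6248 to 7052, were higher in CNOT3-depleted MEFs. Of the 4 muscle markers only 2 were more than 1.5-fold higher at 0 h, beside 19.5% of all named genes, and the lowest fold was 0.717. Of the 4 epithelial markers 3 were, and the lowest fold was 1.06. None of these markers was near background on all arrays, and the part of any such cells in the differences below was not tested. In such bulk RNA, fewer cells of a type and less RNA per cell cannot be told apart.

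The transcripts of 8 F-box genes were stabilized in CNOT3-depleted MEFs. A bright gene was called stabilized where its fraction left after Act. D was at least 2 times that in control MEFs at both 6 and 12 h, and its CNOT3-depleted signal at 6 h was between 0.5 and 2.0 times that at 0 h. These 8 were 15.4% of the 52 bright F-box genes, and 10.6% of the 11062 bright named genes were called in the same way. They were Fbxl14, Fbxl17, Fbxo11, Fbxo22, Fbxo28, Fbxo31, Fbxo38 and Fbxw11. At 0 h none of them was past the 1.5-fold limit in either direction at its brightest probe set.

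Fbxw11 encodes β-TrCP2, which marks phosphorylated IκB and β-catenin. Its signal was 6774, 2311 and 1017 in control cultures at 0, 6 and 12 h, and 7622, 7240.2 and 6569.7 in CNOT3-depleted ones. The 3 CNOT3-depleted arrays lay close together, and the control arrays stepped down at each time. After 12 h, 15.0% of the 0 h signal was left in control and 86.2% in CNOT3-depleted MEFs. Its log2 stabilization, which is the mean over 6 and 12 h of the log2 of the CNOT3-depleted over the control fraction left, was 2.00.

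Fbxo28 encodes a nuclear protein that can ubiquitylate MYC. It had signals of 1114, 91.2 and 77.7 in control cultures at 0, 6 and 12 h, and 1632, 1188 and 1103 in CNOT3-depleted ones. Nearly all of the control signal was gone by 6 h, while each CNOT3-depleted array, also after Act. D, was near or above 0 h control. Its signal at 0 h was 1.47-fold higher in CNOT3-depleted MEFs, just under the 1.5-fold limit, and its log2 stabilization of 3.21 was the highest of the 8 that rests on no signal near background.

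Fbxl14 marks SNAI1, a repressor of epithelial genes. The Fbxl14 signal was 519, 76.4 and 4.43 in control cultures at 0, 6 and 12 h, and 376, 190.0 and 86.1 in CNOT3-depleted ones, and the last control value was near background. Both cultures lost signal at each time, control far more. At 12 h, 22.9% was left in CNOT3-depleted MEFs and at most 3.46% in control, a log2 stabilization of at least 2.25. When the arrays were scaled to the ribosomal protein genes Fbxl14 was no longer called, since its CNOT3-depleted ratio of 6 h to 0 h fell under the lower limit. Fbxl14 was the single stabilized gene with no more than 25% left in CNOT3-depleted MEFs.

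Fbxo31 acts on cyclin D1 after DNA damage. Its probe set read 192, 53.8 and 15.2 in control and 223, 258 and 198 in CNOT3-depleted cultures, in the same order of times, with the control at 12 h near background. All CNOT3-depleted signals were above every control signal, and at most 9.36% was left in control at 12 h. The log2 stabilization was at least 2.65 as deposited and 0.83 after quantile normalization, where Fbxo31 was not called. A dimmer bright probe set of Fbxo31 had 0.82 and was not called. There 52.5% was left at 12 h in control and 84.1% in CNOT3-depleted MEFs.

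For Fbxo38, which acts on the receptor PD-1 in T cells, the signals were 883, 158 and 158 in control and 1120.0, 847 and 632 in CNOT3-depleted cultures. Control had the same signal at 6 and 12 h, far under the 3 CNOT3-depleted values. For Fbxo22, which acts on histone demethylases of the KDM4 family, they were 2978, 1543 and 654 in control and 3173, 3565 and 3701 in CNOT3-depleted cultures. At this probe set the cultures moved in opposite directions, and the fractions left at 12 h were 22.0% in control and 117% in CNOT3-depleted MEFs. The log2 stabilizations were 1.87 for Fbxo38 and 1.76 for Fbxo22.

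Fbxl17 and Fbxo11 had the smallest log2 stabilizations of the 8, 1.43 and 1.12. Fbxl17 takes part in the quality control of BTB-domain proteins, and its signals were 1016, 341 and 205 in control and 1052, 736 and 745 in CNOT3-depleted cultures. Fbxo11 marks the repressor BCL6, and its signals were 1660.0, 792 and 649 in control and 1559, 1519 and 1411 in CNOT3-depleted cultures. At these probe sets the 0 h signals of both were nearly equal in the cultures, and the distance opened after Act. D. A dimmer bright probe set of Fbxl17 had a log2 stabilization of -0.02 and was 1.74-fold lower in CNOT3-depleted MEFs at 0 h. There 79.7% was left at 12 h in control and 65.9% in CNOT3-depleted MEFs. Neither was called after quantile normalization.

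**Figure D1:**
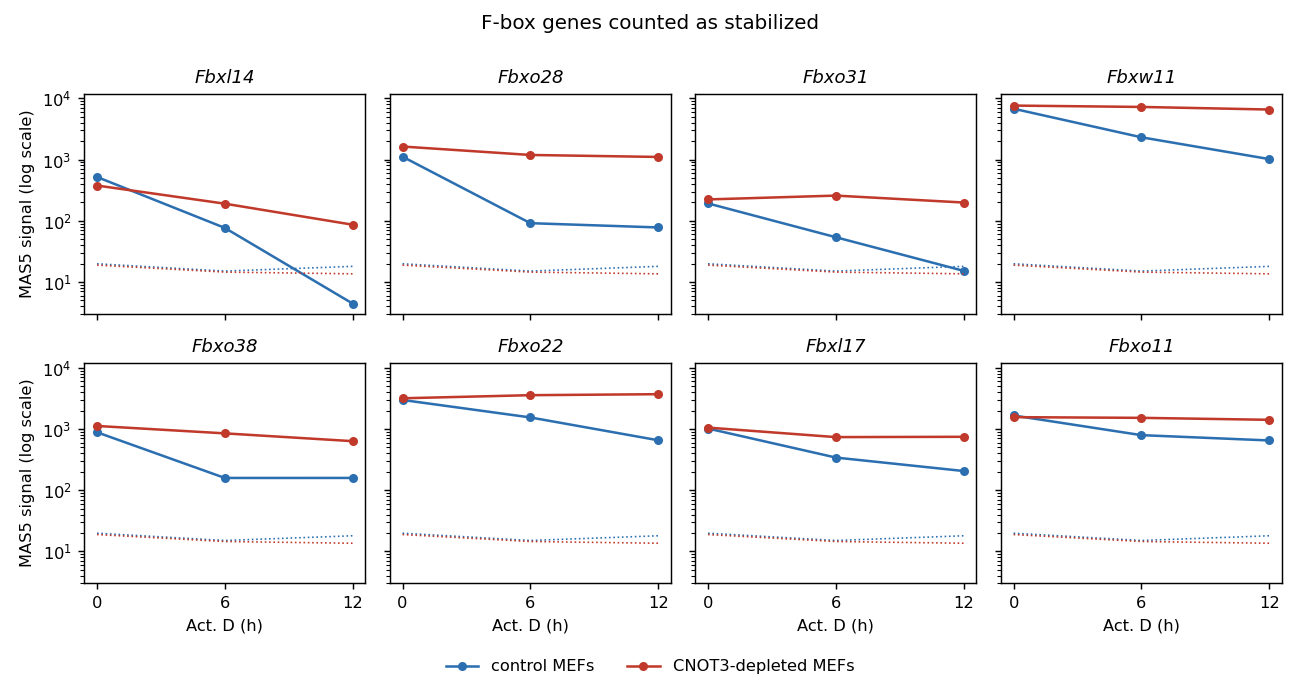
MAS5 signal (log axis) against hours of Act. D for the 8 stabilized F-box genes, 1 array per point, control and CNOT3-depleted MEFs as separate lines, with the 25th percentile of each array dotted. At 12 h every control point lies under its CNOT3-depleted point, with 649 against 1411 for Fbxo11 and 77.7 against 1103 for Fbxo28, and those of Fbxl14 and Fbxo31 are near background.

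Short-lived transcripts were frequent among the F-box genes of control MEFs. At 12 h, 20 of the 52 bright members (38.5%) had at most 25% of their 0 h signal left, against 19.9% of all bright named genes. In CNOT3-depleted MEFs 10 members (19.2%) had at most 25% left, against 6.68% of all bright genes. At 6 h the counts were 14 in control MEFs (26.9%, against 13.4%) and 8 in CNOT3-depleted MEFs (15.4%, against 4.38%). The median fraction left in the bright members was, for 6 and 12 h, 64.7% and 41.7% in control, and 83.5% and 85.4% in CNOT3-depleted MEFs. Over all bright genes these medians were 87.0% and 72.8% in control, and 97.6% and 95.1% in CNOT3-depleted MEFs. Over all 66 members, 23 had at most 25% left in control MEFs at 12 h (34.8%, against 15.1% of all named genes). After quantile normalization 14 members had at most 25% left, and the share of all genes in that setting was not counted. In CNOT3-depleted MEFs 11 of the 66 did (16.7%, against 7.91%). At 6 h 16 of the 66 did in control MEFs (24.2%, against 11.7%) and 8 in CNOT3-depleted MEFs (12.1%, against 6.04%).

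The 20 short-lived members made up 3 classes by the signal left in CNOT3-depleted MEFs at 12 h. In 8 of them more than 50% was left, in 10 at most 25%, and in Fbxo42 and Fbxo45 an amount between. Of the 2204 bright named genes that were short-lived in control MEFs, 50.4% had more than 50% left and 24.9% at most 25% in CNOT3-depleted MEFs. Of the first class, Fbxl17, Fbxo22, Fbxo28, Fbxo31, Fbxo38 and Fbxw11 were stabilized, and Fbxl4 and Fbxo25 missed the call because their ratio at 6 h was under 2. Fbxl4, a mitochondrial protein that restrains mitophagy, had signals of 547, 254 and 113 in control and 671, 506 and 648 in CNOT3-depleted cultures. Its fraction left was 1.62 times that of control at 6 h and 4.66 times at 12 h. Fbxo25, a relative of the muscle ligase atrogin-1, had 1131, 679 and 239 in control and 2476, 2291 and 2398 in CNOT3-depleted cultures. Its ratios were 1.54 and 4.58, and every CNOT3-depleted array was above every control array.

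At their brightest probe sets, Fbxo42 and Fbxo45 were much reduced by Act. D in both cultures, less so without CNOT3. Fbxo42, which can mark p53, had signals of 606, 24.6 and 28.4 in control and 686, 291 and 183 in CNOT3-depleted cultures. Its control signal was almost gone at 6 h, when 42.5% was left in CNOT3-depleted MEFs. This is under the 50% that the stabilization rule asks for, so Fbxo42 was not called despite a log2 stabilization of 2.95. Fbxo45, which forms a ligase with MYCBP2 in place of CUL1, had 927, 171 and 95.8 in control and 621, 252 and 158 in CNOT3-depleted cultures. Its log2 stabilization was 1.22, and its 0 h signal was 1.49-fold lower in CNOT3-depleted MEFs, just short of the 1.5-fold limit.

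The 10 members with at most 25% left in both cultures at 12 h were Fbxl5, Fbxl7, Fbxl8, Fbxl14, Fbxl18, Fbxo5, Fbxo30, Fbxo32, Fbxo34 and Fbxw7. All bright members that were short-lived in CNOT3-depleted MEFs were short-lived in control MEFs too. Fbxw7 marks cyclin E, MYC and Notch. It had signals of 668, 80.6 and 110.0 in control and 774, 109 and 109.7 in CNOT3-depleted cultures, and the decay was nearly the same in the cultures, with 16.5% and 14.2% left at 12 h. Fbxl5, the iron sensor that marks IRP2, had 1076, 153 and 182 in control and 1167, 383 and 261 in CNOT3-depleted cultures. Its CNOT3-depleted signal was above control at all times, and 22.4% was left at 12 h, against 16.9% in control. Fbxo32, which encodes atrogin-1, had 453, 46.6 and 6.67 in control and 709, 143 and 74.996 in CNOT3-depleted cultures. The last control value was near background, and control was the lower culture at each time. Fbxo34 had 599, 4.38 and 6.49 in control and 602, 32.8 and 60.3 in CNOT3-depleted cultures, with both later control signals near background. The log2 stabilizations of Fbxo32 and Fbxo34 were at least 1.19 and at least 1.43.

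At the brightest probe sets of Fbxo5, Fbxl7 and Fbxo30, less was left at 12 h without CNOT3. At their dimmer bright probe sets Fbxl7 and Fbxo30 had positive log2 stabilizations, given below. Fbxo5 encodes EMI1, the inhibitor of the anaphase-promoting complex, and its signals were 1526, 127 and 198 in control and 611, 85.0 and 12.4 in CNOT3-depleted cultures. The CNOT3-depleted signal was lower at each time and near background at 12 h, when at most 2.22% was left, against 13.0% in control. At 6 h the order of the fractions was the opposite one, 13.9% against 8.32%. Fbxl7, which acts on aurora A kinase, had 431, 83.5 and 96.5 in control and 301, 32.8 and 7.56 in CNOT3-depleted cultures. Its CNOT3-depleted signal at 12 h was near background, and its log2 stabilization was at most -1.57. Fbxo30, a ligase of muscle atrophy also called MUSA1, had 941, 133 and 159.7 in control and 1049, 95.7 and 74.6 in CNOT3-depleted cultures, with a log2 stabilization of -0.94. By qPCR, the study reported similar half-lives of Fbxo30 mRNA in control and CNOT3-depleted MEFs. Fbxl8 and Fbxl18 were each near background on 3 of the 4 later arrays and just above it on the other, so no order of decay was read. The signals of Fbxl8 were 149, 12.1 and 15.3 in control and 191, 14.8 and 7.74 in CNOT3-depleted cultures. The signals of Fbxl18 were 108, 13.1 and 15.9 in control and 127, 10.9 and 14.2 in CNOT3-depleted cultures.

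**Figure D2:**
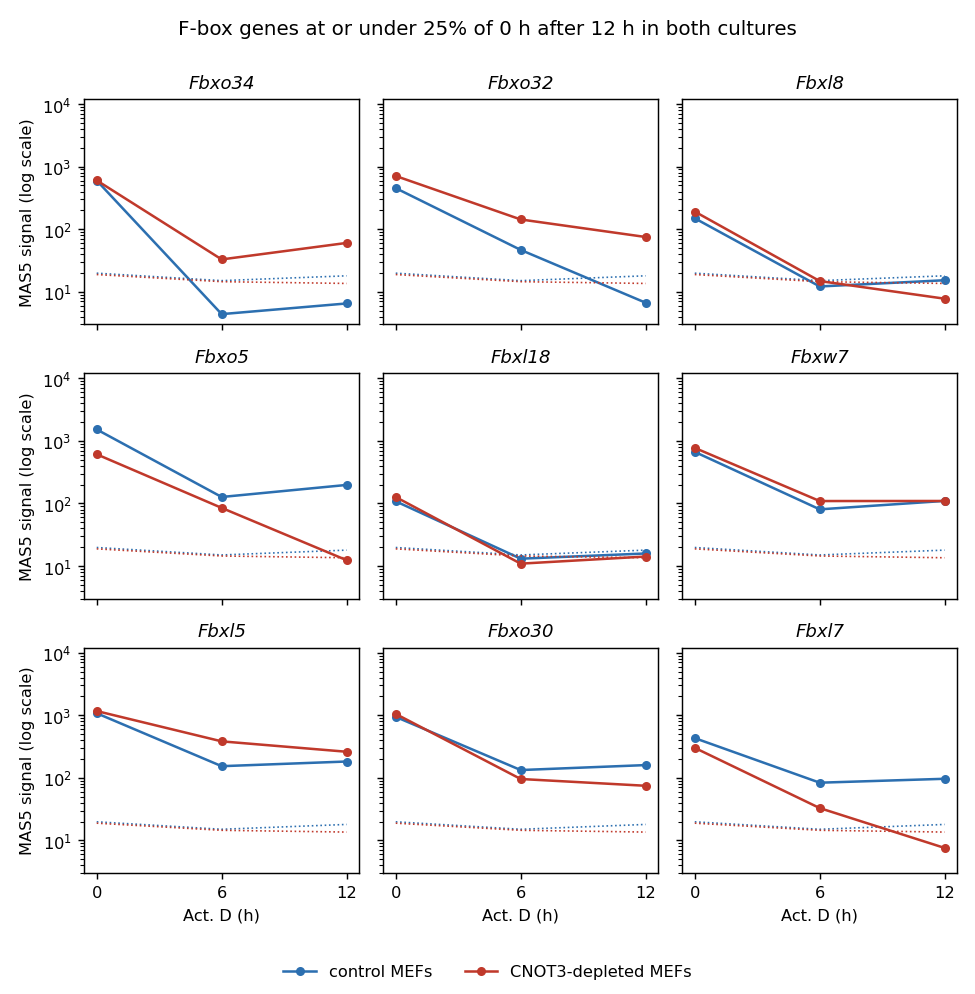
MAS5 signal (log axis) against hours of Act. D for the 9 F-box genes with at most 25% left at 12 h in both cultures, Fbxl14 apart, 1 array per point, with the 25th percentile of each array dotted. Both lines drop in every gene, and those of Fbxw7 end at 110.0 in control and 109.7 in CNOT3-depleted MEFs.

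Across the bright members, more was left in CNOT3-depleted MEFs at both times in 28 genes and less at both times in 14. Among all bright genes these were 45.7% and 35.4%. The split depends on the scaling of the arrays, with 23 and 19 genes after quantile normalization and 40 and 4 when the arrays were scaled to the ribosomal protein genes. The median log2 stabilization of the bright members was 0.33, beside 0.13 over all bright genes. By family it was 0.80 over the 27 bright Fbxo genes, -0.13 over the 15 bright Fbxl genes and -0.05 over the 10 bright Fbxw genes. In the rule with the cultures exchanged, which asks for at least 2 times more left in control MEFs, 1 bright member was called (1.92%), against 0.479% of all bright genes. This was Fbxo46, with 94.8, 58.1 and 88.3 in control and 146, 43.0 and 52.3 in CNOT3-depleted cultures. The control signal at 12 h was close to its 0 h level, and the CNOT3-depleted signals at 6 and 12 h were under those of control at the same times. Under ribosomal protein scaling Fbxo46 was not called.

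In 12 bright members more than 75% was left on all 4 later arrays, as it was in 42.1% of all bright genes. They were Fbxl2, Fbxl6, Fbxl16, Fbxo2, Fbxo16, Fbxo27, Fbxo36, Fbxw2, Fbxw5, Fbxw8, Fbxw17 and Fbxw22. Fbxw8, which works with the cullin CUL7, had 1052, 1130.3 and 920.1 in control and 1558, 1342 and 1268 in CNOT3-depleted cultures. The CNOT3-depleted signal was higher at each time, with 87.4% left at 12 h in control and 81.4% in CNOT3-depleted MEFs. Fbxw5, a ligase of centrosome duplication, had 133, 147 and 169 in control and 132, 139 and 143 in CNOT3-depleted cultures, all within a narrow range. Fbxl12, which acts on p21, and Fbxo9, which acts on TEL2 and TTI1 in mTOR signalling, were only a little less stable. The signals of Fbxl12 were 436, 307 and 377 in control and 592, 451 and 384 in CNOT3-depleted cultures. Those of Fbxo9 were 1293, 970.0 and 1046 in control and 1109, 755 and 715 in CNOT3-depleted cultures, lower without CNOT3 at each time. Fbxw2 had 519.5, 681 and 663 in control and 584, 519.8 and 539 in CNOT3-depleted cultures, and its control signals after Act. D were above all others. Fbxl19, which binds unmethylated CpG islands, had 234, 107 and 139.9 in control and 282, 99.2 and 92.5 in CNOT3-depleted cultures, with 59.8% and 32.9% left at 12 h.

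A further set of Fbxo genes parted mainly at 12 h. Fbxo3, which marks FBXL2, had 1753, 1194 and 545 in control and 1720.4, 2082 and 2183 in CNOT3-depleted cultures. The cultures began at nearly the same signal, and at 12 h 31.1% was left in control and 127% in CNOT3-depleted MEFs, but at 6 h the ratio of these fractions was 1.78. Fbxo4, which acts on cyclin D1, had 885, 660.5 and 469 in control and 1162, 1288 and 1257 in CNOT3-depleted cultures, with every later CNOT3-depleted signal above that at 0 h. Fbxo8 had 722, 596 and 277 in control and 692, 704 and 604 in CNOT3-depleted cultures. Fbxo21 had 686, 468 and 245 in control and 789, 725 and 697 in CNOT3-depleted cultures. In all of them the control signal was lowest at 12 h, and their log2 stabilizations were between 0.74 for Fbxo8 and 1.43 for Fbxo3. When 12 h alone was asked for, 15 bright members were stabilized, and 22.4% of all bright genes. When both later ratios had to reach 3, 4 members were (Fbxl14, Fbxo28, Fbxo31 and Fbxo38), and 4.53% of all bright genes.

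**Figure D3:**
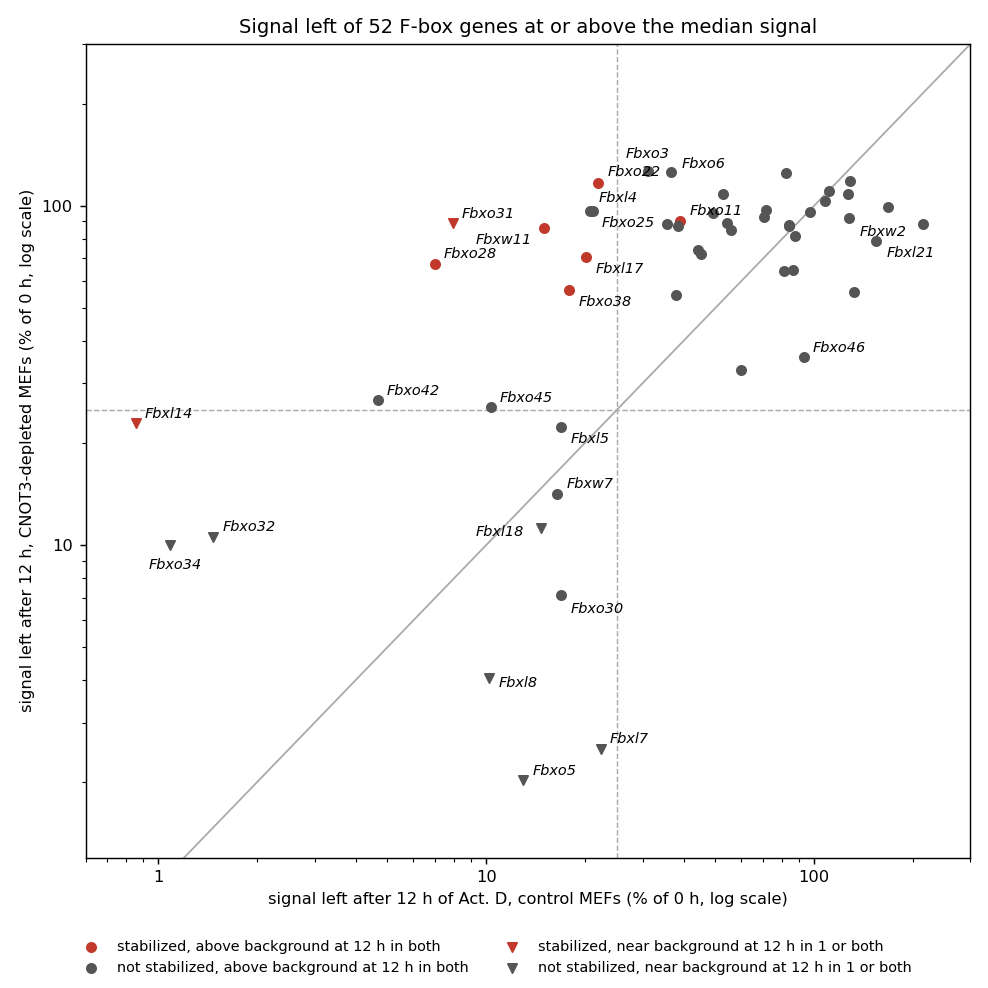
Percentage of the 0 h signal left after 12 h of Act. D in control (horizontal) and CNOT3-depleted MEFs (vertical), log axes, 1 point for each of the 52 bright F-box genes, with the line of equal percentages, the 25% limits dashed, stabilized genes in red and genes near background at 12 h in either culture as triangles, placed at their measured values. The points left of the 25% limit are the 20 genes short-lived in control MEFs, of which 10 lie under the horizontal limit as well.

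At 0 h, where transcription had not been stopped, the F-box genes were more often higher than lower in CNOT3-depleted MEFs. Of all 66 members, 16 (24.2%) were more than 1.5-fold higher, against 19.5% of all named genes, and 6 (9.09%) were more than 1.5-fold lower, against 15.7%. Among the 52 bright members 11 were higher (21.2%, against 12.4% of bright genes) and 1 was lower (1.92%, against 6.77%). The bright limit is set on both 0 h signals, so a gene can pass it through the culture where it is high. Fbxl21, Fbxo16 and Fbxo27 had control signals of 39.9, 48.3 and 69.9 at 0 h, under the limit of 72.9. By any size, 41 of the 52 were higher, as were 58.3% of all bright genes. The median log2 fold was 0.22 over the bright members and 0.08 over all bright genes. The 11 were Fbxl15, Fbxl21, Fbxo6, Fbxo7, Fbxo10, Fbxo16, Fbxo25, Fbxo27, Fbxo32, Fbxo46 and Fbxw9. Just inside the limit were Fbxw9 at 1.53-fold and Fbxo46 at 1.54-fold, and just outside it Fbxw8 at 1.48-fold and Fbxo28 at 1.47-fold.

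The largest of these folds belonged to genes with low control signals at 0 h, under or little above the median of that array. This median was 77.4 and the 25th percentile was 19.8. Fbxl21, which acts on cryptochromes, had 39.9, 71.6 and 61.7 in control and 135, 98.7 and 106 in CNOT3-depleted cultures. It was 3.38-fold higher at 0 h, and the cultures drew together after Act. D. Fbxo16 had 48.3, 36.9 and 52.04 in control and 155, 154 and 159.5 in CNOT3-depleted cultures, 3.20-fold higher at 0 h, and the order of the cultures was the same at each time. Fbxo10, which acts on BCL2, had 89.6, 85.9 and 39.7 in control and 237, 181 and 176 in CNOT3-depleted cultures and was 2.65-fold higher at 0 h. In Fbxo16 and Fbxo10 all CNOT3-depleted signals were above all control signals.

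Among the brighter ones was Fbxo7, a gene of inherited parkinsonism whose protein acts with PINK1 and parkin in mitophagy. It had 248, 120.3 and 138 in control and 602, 498 and 509.5 in CNOT3-depleted cultures. The signal was 2.42-fold higher at 0 h, every CNOT3-depleted array was above every control array, and 55.7% and 84.7% were left at 12 h. Fbxo25 was 2.19-fold higher at 0 h and Fbxo32 1.56-fold. Fbxl15, which acts on the ligase SMURF1, had 175, 134 and 78.9 in control and 291, 202 and 209.8 in CNOT3-depleted cultures, 1.66-fold higher. Fbxw9 had 563, 565 and 402 in control and 861, 954 and 839.9 in CNOT3-depleted cultures, and its lowest CNOT3-depleted signal was above its highest control signal. The single bright member that was lower was Fbxo5, by 2.496-fold.

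**Figure D4:**
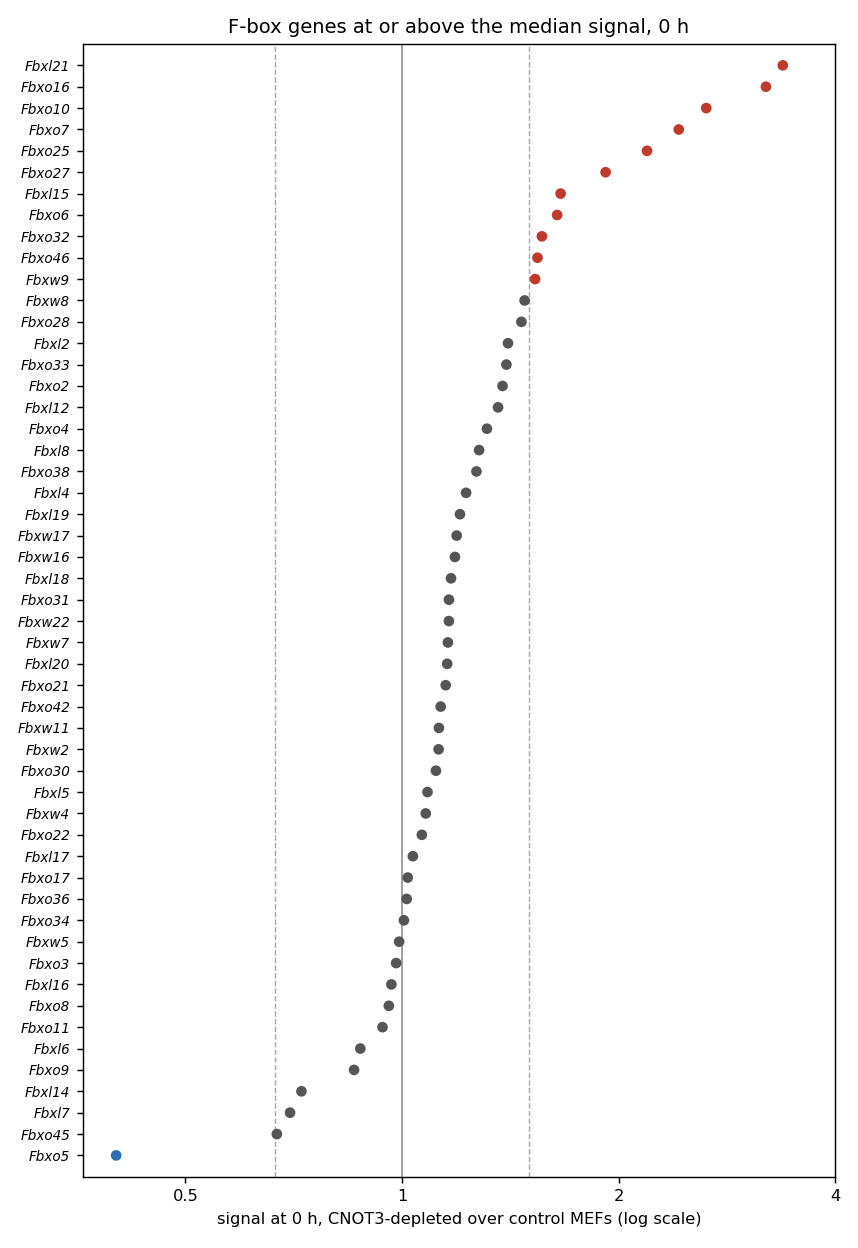
Ratio of the CNOT3-depleted to the control signal at 0 h (log axis) for the 52 bright F-box genes, sorted, 1 point per gene from 1 array per culture, with the 1.5-fold limits dashed and the genes past them coloured. The points run from Fbxo5 at 0.401 to Fbxl21 at 3.38, and 11 lie past the upper limit and 1 past the lower one.

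By what the proteins act on, the higher genes were spread over several groups. Fbxo2, Fbxo6, Fbxo17, Fbxo27 and Fbxo44 were listed together as glycoprotein-binding, a group in which some proteins recognise sugar chains on misfolded proteins. Of these 5, 2 were more than 1.5-fold higher, beside 19.5% of all named genes. Of the 4 that were bright 0 were stabilized, beside 10.6% of all bright genes. Fbxo6 had 562, 489.8 and 206 in control and 923, 1026 and 1162 in CNOT3-depleted cultures. It was 1.64-fold higher at 0 h, and at 12 h the control signal was lower and the CNOT3-depleted signal higher than at 0 h. Fbxo27 had 69.9, 56.3 and 149.9 in control and 134, 165 and 119 in CNOT3-depleted cultures and was 1.92-fold higher at 0 h, but at 12 h control was the higher one. Fbxo2 had 78.9, 108 and 133 in control and 109, 147 and 108 in CNOT3-depleted cultures, a range in which the cultures overlapped. Fbxo17 had 649.8, 494 and 319 in control and 662, 679.5 and 631 in CNOT3-depleted cultures, nearly equal at 0 h and lower in control after Act. D. Fbxo44 was not bright.

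Of 9 cell cycle and genome members measured, 8 were bright, and 3 of these were stabilized (Fbxw11, Fbxo31 and Fbxo11), beside 10.6% of all bright genes. Of the 9, 0 were more than 1.5-fold higher and 2 were lower at 0 h, beside 19.5% and 15.7% of all named genes. The lower ones were Fbxo5 and Fbxo43. Fbxo43 encodes EMI2, the relative of EMI1 that acts in meiosis, and its signals were 20.3, 21.0 and 4.49 in control and 6.50, 8.91 and 3.18 in CNOT3-depleted cultures, near background on 4 arrays. The median log2 stabilization of the 9 was 0.78, and 0.36 after quantile normalization. Of the 3 muscle members measured, Fbxo21, Fbxo30 and Fbxo32, only Fbxo32 was higher and 0 were stabilized. Of the circadian members, Fbxl21 was higher and Fbxw11 stabilized. The iron, mitochondria and autophagy members were Fbxl4, Fbxl5, Fbxl20 and Fbxo7, of which only Fbxo7 was higher at its brightest probe set.

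Pairs of closely related genes were set side by side. Fbxl20 had 881, 759 and 618 in control and 1018, 1092 and 943 in CNOT3-depleted cultures, and its close relative Fbxl2 is a prenylated protein at membranes. Fbxl2 had 154, 131 and 126 in control and 216, 232 and 270.3 in CNOT3-depleted cultures. Both were higher without CNOT3 at all times, with log2 stabilizations of 0.36 and 0.47 at these probe sets. Btrc, the β-TrCP1 gene and the relative of Fbxw11, had 72.3, 34.1 and 50.01 in control and 164, 110.1 and 114 in CNOT3-depleted cultures, 2.26-fold higher at 0 h. Fbxw11 itself was 1.13-fold higher. Fbxo10 was 2.65-fold higher at 0 h and not stabilized, while its relative Fbxo11 was stabilized and 1.06-fold lower at 0 h. Levels were not set against each other between genes, since each probe set has its own response.

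The 14 members that were not bright were Fbxl13, Fbxo15, Fbxo24, Fbxo41, Fbxo43, Fbxo44 and 8 Fbxw genes. Of them Fbxl13 and Fbxw13 were near background on all 6 arrays. They hold 5 of the 16 calls of higher and 5 of the 6 of lower signal at 0 h, so those calls rest on signals under the median of the arrays. Fbxw19 was above background on every array, with 85.8, 77.5 and 22.6 in control and 59.9, 74.8 and 47.3 in CNOT3-depleted cultures, with the lowest value in control at 12 h. Fbxo24 had 37.5, 32.7 and 44.6 in control and 43.2, 22.6 and 6.90 in CNOT3-depleted cultures, with its lowest signal in CNOT3-depleted MEFs at 12 h. Fbxo15, known as a marker of embryonic stem cells, had 42.5, 6.09 and 9.95 in control and 13.7, 30.5 and 31.0 in CNOT3-depleted cultures, and 3 of these 6 signals were near background. In RefSeq (GRCm38.p6) 15 of the Fbxw genes follow each other with at most 2 other genes between neighbours, and near-identical copies may bind the same probes. Of the 9 of them measured here, 2 were bright (Fbxw16 and Fbxw22), 6 were near background on at least 3 arrays, and the highest signal was 198. These 9 genes were kept in the counts and medians above. Fbxw18, Fbxw21 and Fbxw24 were among the 16 calls of higher signal at 0 h, and Fbxw13 and Fbxw14 among the 6 of lower. No difference between the cultures is claimed for any of these genes alone.

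Where a gene had several probe sets, these often gave different values. Of the 26 genes with several, 20 had more than 1 bright probe set, and in 9 of these 20 all bright probe sets had log2 stabilizations of the same sign. The fold at 0 h had the same sign in 11 of the 20. The median range between probe sets of 1 gene was 1.46 for log2 stabilization and 0.50 for log2 fold, all at the measured values, also where a signal was near background. Fbxo28 was the single gene in which all of several bright probe sets were stabilized, with log2 stabilizations of 3.21, 1.60 and 2.98. Its other probe sets had 517, 108 and 130.2 in control and 658, 562 and 377 in CNOT3-depleted cultures, and 527, 49.0 and 62.7 in control and 898, 784 and 712 in CNOT3-depleted cultures, with control the lower culture at each later time.

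For Fbxw11 the pair of brightest probe sets was stabilized, with values of 2.00 and 1.82, while the 3 dimmer bright ones were not. Of these the third had -0.15 and the next at most -1.22, and the last was near background in both cultures at 12 h. The next was called by the rule with the cultures exchanged. It and the last were 1.52- and 1.72-fold lower in CNOT3-depleted MEFs at 0 h. The second of the stabilized pair had signals of 1524, 579.7 and 252 in control and 1711, 1528 and 1493 in CNOT3-depleted cultures. Fbxl20, Fbxo33 and Fbxo42 were stabilized only at dimmer probe sets. For Fbxl20, whose protein acts on the lipid kinase VPS34, the next probe set had 1101, 307 and 199 in control and 1685, 1478 and 1459 in CNOT3-depleted cultures, a log2 stabilization of 1.96. For Fbxo33 it had 974, 176 and 146 in control and 1196, 791 and 775 in CNOT3-depleted cultures, a log2 stabilization of 1.99, beside 0.56 at the chosen one. Both were brighter at 0 h than the chosen probe sets, since the mean over 6 arrays favours those that keep their signal after Act. D. Chosen at 0 h, 10 bright members were stabilized, the same 8 and these genes, beside 11% of all bright genes.

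The directions of some genes turned with the probe set. Fbxl7 had a log2 stabilization of at most -1.57 at the chosen probe set and of at least 0.90 at the next. The signals of the latter were 172, 5.68 and 12.9 in control and 259, 55.5 and 38.4 in CNOT3-depleted cultures, near background in control at both later times. Fbxo30 had -0.94 and, at its dimmer probe sets, 0.39, 0.33 and 0.68, so neither gene has a direction that holds over its probe sets. The sign also turned in Fbxo42, with 2.95 at the chosen probe set and 2.66 and -0.71 at its dimmer ones. Fbxo45 had 1.22 and, at its dimmer probe set, a measured -0.54 with 3 arrays near background. At 0 h the folds of Fbxo32 were 1.56, 2.27 and 2.80 and those of Fbxw8 1.48, 1.57 and 2.29, all higher in CNOT3-depleted MEFs. When each gene was read by the median over all its probe sets, 8 bright members were stabilized, beside 9.75% of all bright genes. Of these 5 are among the 8 above, with Fbxl20, Fbxo33 and Fbxo42 in place of Fbxl17, Fbxo22 and Fbxw11. Which transcript ends the probe sets read was not analysed here.

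**Figure D5:**
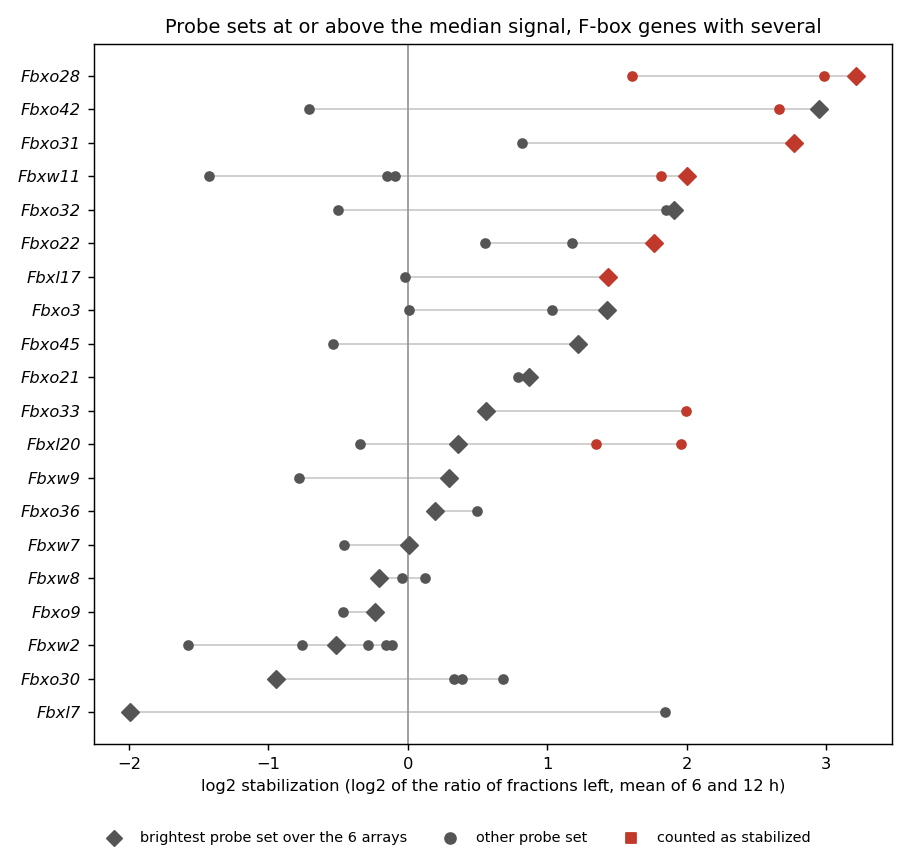
Log2 stabilization (mean of 6 and 12 h of Act. D) at each bright probe set of the 20 F-box genes with more than 1, with the chosen probe set as a diamond, the others as circles and the stabilized ones in red, all at measured values, also near background. The points of 1 gene span a median of 1.46, and those of Fbxo28 all lie between 1.60 and 3.21.

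The rest of the SCF ligase was read from a list of the core subunits, of NEDD8 conjugation, of CAND and DCN1 factors and of the COP9 signalosome. Of 31 genes listed 29 were measured, all bright, and 0 were more than 1.5-fold higher, 1 lower and 4 stabilized. Among all bright genes 12.4% were higher, 6.77% lower and 10.6% stabilized. The median log2 fold at 0 h was -0.05, beside 0.08 over all bright genes, and the median log2 stabilization was 0.48, beside 0.13. Cul1, the scaffold itself, had 2779, 892 and 155 in control and 3038, 2556 and 2673 in CNOT3-depleted cultures. Its control signal was lower at each time while the CNOT3-depleted arrays lay close together, a log2 stabilization of 2.68. Cand1, which exchanges F-box proteins on CUL1, had 2969, 1377 and 277 in control and 3059, 2964 and 2704 in CNOT3-depleted cultures, with a log2 stabilization of 2.15. The other stabilized genes were Dcun1d4, a NEDD8 ligase cofactor, at 3.05 or more, with control near background at 12 h, and Senp8, a NEDD8 protease, at 1.57. Rbx1 was 2.28-fold lower at 0 h, with 129, 81.5 and 131 in control and 56.9, 39.3 and 8.81 in CNOT3-depleted cultures. Skp1, the adaptor for the F-box proteins, had 9961, 16419.7 and 21265 in control and 9611, 11351 and 11153 in CNOT3-depleted cultures. Relative to the rest of each array, its signal was higher after Act. D than at 0 h in both cultures.

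Of the 5 F-box genes that go under other symbols, Btrc was higher at 0 h and Kdm2b stabilized. Kdm2b, which also has a histone demethylase domain, had 1825, 469 and 199 in control and 1735, 1119 and 979.9 in CNOT3-depleted cultures, a log2 stabilization of 1.85. Skp2, which marks p27, had 1572, 857 and 436 in control and 1310.1, 1308 and 1154 in CNOT3-depleted cultures, with 27.7% and 88.1% left at 12 h. Ccnf, or cyclin F, had 418, 20.5 and 18.2 in control and 299.7, 111 and 71.4 in CNOT3-depleted cultures. Its log2 stabilization was 2.69, and it was not called because 37.1% was left in CNOT3-depleted MEFs at 6 h.

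Transcripts of 25 known substrates of these ligases were read as well. All were bright, and 1 was more than 1.5-fold higher and 2 lower at 0 h, beside 12.4% and 6.77% of all bright genes. Of the 25, 6 were stabilized (Ccne2, Cry1, Wee1, Cdkn1a, Cdt1 and Vhl), beside 10.6% of all bright genes. At 12 h, 14 had at most 25% left in control MEFs, and 8 did in those without CNOT3, beside 19.9% and 6.68% of all bright genes. Cdkn1a, which encodes p21, had 8319.6, 3952 and 2048 in control and 14216, 13519.7 and 13649 in CNOT3-depleted cultures. It was 1.71-fold higher at 0 h, with a log2 stabilization of 1.48. Ccne2, or cyclin E2, had 1418, 572 and 220.4 in control and 780.3, 772 and 718 in CNOT3-depleted cultures and was 1.82-fold lower at 0 h. Cry1, a repressor of the clock, had 465, 172 and 59.2 in control and 305, 343 and 304 in CNOT3-depleted cultures and was 1.53-fold lower. Both were stabilized and lower at once, with log2 stabilizations of 1.93 and 2.29. These are mRNA levels, and the stability of the proteins was not measured on the arrays.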

How the data were processed

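Total RNA from each culture at each time was labelled with biotin and hybridized to mouse expression arrays, 1 array for each of the 6 conditions. The deposited intensity values are MAS5 signals, which the authors computed per probe set on a linear scale. The trimmed mean of each array lay between 494 and 497. For the MAS5 version and its scaling target, the sources used here say nothing. Of 45037 probe sets, the platform's annotation named 35877, and 932 of these carried several genes and were not used. Gene types and gene order came from RefSeq (GRCm38.p6), where all 66 members were found by symbol.

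A floor of 1 was put under the signals, which were not scaled again. Folds, percentages left and stabilization were computed with Python 3.11.15, numpy 2.4.6 and pandas 2.3.3, and the scripts that count calls were tested on simulated data. Where a later signal was near background, the 25th percentile of its array was used in its place, and the value is given as at most or at least. Genes named by rule were, among members above background on both 0 h arrays, the stabilized members, those called with the cultures exchanged, the 5 highest and 5 lowest folds at 0 h, the 10 most and 5 least stabilized and, in each culture, the 5 with the least left at 12 h. Others are members of role lists or were picked with their values in view. The members, lists and rules were chosen with earlier results of these data known. Alternatives were quantile normalization, scaling to 47 ribosomal protein genes, a floor of 16, the median over probe sets, stricter limits, bright genes alone and each time alone. Samples were grouped by their titles, and no comparison was tested, since 1 array per condition gives no spread between replicates.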

Additional observations from a re-analysis of the deposited data

Results flagged for a closer look

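In 7 of the 44 bright members that were above background on all arrays, the cultures moved in opposite directions after Act. D, with both later signals under the 0 h signal in one culture and above it in the other. Of 10615 bright named genes above background on all arrays, 7.83% had control under and CNOT3-depleted above 0 h, and 4.32% the reverse. These were 11.4% and 4.55% of the 44 members. The differences were not tested, since each condition has 1 array. In 5 of the 7, control was under and CNOT3-depleted above its 0 h signal at both times. These were Fbxo22, with a log2 stabilization of 1.76, Fbxo3 with 1.43, Fbxo6 with 1.07, Fbxo4 with 0.80 and Fbxl2 with 0.47. In the other 2, Fbxl21 with -1.13 and Fbxw2 with -0.51, control was above and CNOT3-depleted under its 0 h signal. The opposite movement holds at the chosen probe sets. Of the other bright probe sets, it was seen at 0 of 2 for Fbxo22, 1 of 2 for Fbxo3 and 0 of 5 for Fbxw2, and the next Fbxo3 probe set had a log2 stabilization of 0.0063. The remaining 4 genes have no other bright probe set. When the arrays were scaled to the ribosomal protein genes, the difference in Fbxw2 was no longer seen and Fbxl21 had -0.62. Each signal is relative to its array, so a rise above 0 h need not be a rise in the amount of RNA. Whether the opposite movement of the other 5 genes holds under another scaling was not analysed.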

How the results depend on the processing

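With 1 array per condition, every count rests on single signals, and calls near a limit or near background depend on it. No paired analysis was possible because each condition has 1 array and the labels carry no replicate numbers. Of 300 values of 25 named genes under the alternatives, 265 moved by little, 35 moved and 0 of those past a limit changed sign. Among the values that moved, those of Fbxl7 and Fbxw11 at 0 h, of Fbxo42 at 0 h and of Fbxo30 after Act. D changed sign with the median over all probe sets (the log2 fold of Fbxw11 to -0.78), and that of Fbxo5 after Act. D at 6 h alone (0.74).

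The number of stabilized members was 8, but 14 when scaled to the ribosomal protein genes, 15 by 12 h alone and 4 with a 3-fold limit. Of all bright genes 10.6% were stabilized, and 19.9%, 22.4% and 4.53% under these settings. Ribosomal protein scaling moved each log2 stabilization by 0.52 and each log2 fold at 0 h by 0.05, so that the median log2 stabilization of all named genes was 0.54 and that of the members 0.98. With a 2-fold limit 7 members were higher at 0 h in place of 16, and 10.4% of all named genes in place of 19.5%. The count of lower members, 6, was 3 with a floor of 16 and 1 among bright genes alone. Over all genes the shares of lower ones were 15.7%, 10.8% and 6.77%. The share of higher among called members was 72.7%, and 58.3% with the 2-fold limit or 91.7% among bright genes alone. Over all genes these shares were 55.4%, 54.2% and 64.7%. Members with at most 25% left in control MEFs at 12 h numbered 23, and 14 after quantile normalization, where the share of all genes was not counted. Quantile normalization called 6 members stabilized, of which 5 were among the 8, and 7.78% of all bright genes. Choosing the probe set by its 0 h signal, an alternative chosen after seeing the data, called 10. The cause of these shifts was not tested.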

Other observations

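Fbxl12os, the pseudogene that the rule for names would take in, had signals of 5.90, 7.12 and 10.5 in control and 29.1, 6.43 and 5.45 in CNOT3-depleted cultures, near background on 5 arrays. A pair of probe sets, each named for 2 neighbouring Fbxw genes, was left out of the values above. The one for Fbxw14 and Fbxw28 was near background on 5 arrays and the one for Fbxw23 and Fbxw25 on 4.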
